A study of Mus musculus with 6 samples.

Results

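Collagens are the main structural proteins of the extracellular matrix, and this account follows the collagen genes in endothelial cells taken from the brains of mice with and without an endothelial knockout of the glucose carrier GLUT1. The members are all gene symbols made of Col, a type number, the letter a and a chain number that had at least 10 counts summed over the 6 libraries. Of 43 such symbols among the 23329 in the files, 39 met that minimum, and 34 of these passed the filter on low counts and were tested. Just above the minimum stood Col6a5 with 13 counts in all, and just below it Col24a1 with 8. By the textbook structure of each chain the 39 members were 8 basement membrane, 10 fibrillar, 7 fibril-associated and 14 other collagens.

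Every collagen chain carries a stretch of repeated glycine triplets with which it winds around partner chains into a rope-like helix. Fibrillar collagens such as types I, III and V pack into the fibres of connective tissue. Type IV collagen forms the sheet-like network of basement membranes, on which brain endothelial cells and pericytes sit, and the multiplexins of types XV and XVIII decorate that layer. Fibril-associated collagens with interrupted helices, called FACITs, do not build fibres themselves but bind to their surface. In the brain, fibrillar collagen genes are best known from perivascular and meningeal fibroblasts, while the type IV chains Col4a1 and Col4a2 are made by endothelial cells and by mural cells.

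RNA sequencing counts were compared between 3 WT and 3 GLUT1EC-/- libraries. All came from brain endothelial cells of adult C57BL/6 mice, 8 weeks old, isolated by magnetic sorting (MACS) without culture, and the WT animals were littermates of the GLUT1EC-/- animals. The labels call the second genotype a knockout of Glut1 (Slc2a1) specific to endothelial cells; the Cre line and the deleted exons are not given in the sources used here. The comparison asks how the transcripts of these cells differ between the genotypes. Each library has its own animal number, in the 200s for 2 WT and 1 GLUT1EC-/- libraries and in the 500s for 1 WT and 2 GLUT1EC-/- libraries, and the labels do not say what the number series stands for.

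Total counts were 31874662 to 39424384 per library, with 16705 to 17257 genes detected. GLUT1EC-/- 2 stood apart, with a TMM scaling factor of 0.884 against 1.01 to 1.05 and a mean correlation to its own group of 0.971 across genes against 0.978 to 0.993. Slc2a1 was at 3984, 4479 and 4172 CPM, which are counts scaled to library size, in WT 1 to 3 and at 3735, 5414 and 3893 CPM in the libraries labelled GLUT1EC-/- 1 to 3 (log2 fold change 0.05, SE 0.18, edgeR adjusted p = 0.921, 95% interval of the fold 0.780 to 1.37). The groups overlapped, so the targeted gene's count does not separate them, and each direction below is between libraries as labelled. Of 12 endothelial markers only Vwf rose, where 0.863% of all genes tested did. Among the markers of other cells Dcn rose among 10 tested for fibroblasts, Gfap among 8 for astrocytes, and C1qc, Trem2 and C1qb among 10 for microglia. The astrocyte list was split, with 4 positive and 4 negative values and a median log2 fold change of -0.01. Neurons (0 of 8), the choroid plexus (0 of 8), smooth muscle (0 of 8) and pericytes (0 of 10) had no marker that passed, though the choroid plexus transcript Ttr was at 2778 to 6057 CPM. In such bulk samples fewer cells of a type and less RNA per cell cannot be told apart.

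The most abundant collagens of these cells, Col4a1 and Col4a2, are neighbours transcribed away from each other. Both lie on chromosome 8 (GRCm38), Col4a1 on the minus strand from 11198423 to 11312826 and Col4a2 on the plus strand from 11312805 to 11449287. Their annotated start sites are 21 bases apart and the genes overlap by 22 bases. The promoter windows are shown because both genes moved together and read the same stretch of DNA in opposite directions. Each window runs from 250 bases before to 50 bases after the start site in RefSeq's GRCm38.p6, at chr8:11312777-11313076 (minus strand) for Col4a1 and chr8:11312555-11312854 (plus strand) for Col4a2. The capitals mark the 78 bases that both windows hold, each the reverse complement of the other.
Col4a1: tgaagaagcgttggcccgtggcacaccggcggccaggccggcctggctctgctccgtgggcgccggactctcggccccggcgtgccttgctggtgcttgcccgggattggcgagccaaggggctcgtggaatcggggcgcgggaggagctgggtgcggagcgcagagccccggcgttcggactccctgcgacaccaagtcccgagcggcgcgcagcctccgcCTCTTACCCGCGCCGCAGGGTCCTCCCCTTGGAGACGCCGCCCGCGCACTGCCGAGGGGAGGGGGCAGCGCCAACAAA
Col4a2: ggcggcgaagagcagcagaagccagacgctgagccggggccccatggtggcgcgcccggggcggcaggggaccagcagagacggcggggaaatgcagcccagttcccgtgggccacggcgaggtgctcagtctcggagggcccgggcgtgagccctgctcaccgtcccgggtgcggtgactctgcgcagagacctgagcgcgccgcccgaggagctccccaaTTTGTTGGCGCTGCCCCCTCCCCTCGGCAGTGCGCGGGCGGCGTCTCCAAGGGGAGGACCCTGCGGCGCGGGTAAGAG
The windows are rich in G and C, at 74% and 73.7% against a median of 52.7% over 32851 promoter windows of the same length. The letters CCAAT, read on both strands, occur in each window, with the first base 145 bases before the start of Col4a1 and 32 bases before that of Col4a2, and 37.4% of all windows hold them. GGGCGG, the core of a GC box, occurs 1 time in the Col4a1 window and 3 times in that of Col4a2, against 35.7% of all windows with a match, and the Col4a1 match is 1 of the 3, read from the other strand within the shared bases. TATAAA occurs in neither, and in 13.6% of all windows. The motifs searched do not overlap here, and a match is a description of the letters, not of a bound factor.

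Of the 34 tested collagens, 4 rose and 1 fell in the GLUT1EC-/- libraries. Those that rose were the basement membrane genes Col4a1, Col4a2 and Col18a1 and the FACIT gene Col12a1, and the one that fell was the FACIT gene Col14a1. The test was edgeR's quasi-likelihood test on all 14838 genes that passed the filter, with Benjamini-Hochberg adjusted p under 0.05, and it called 1.31% of them, 0.863% higher and 0.445% lower. Fibrillar collagens (0 of 9) and the other collagens (0 of 11) had no call. The median log2 fold change of the 34 was 0.30, against 0.01 over all genes tested. Positive values were held by 23 of them and negative ones by 11, against 7647 and 7191 of all 14838 genes. Groups did not overlap for 10 collagens that were higher and 2 that were lower, where 11.7% and 11.2% of all genes tested did so. At an unadjusted p under 0.05, 13 collagens were higher and 2 lower, against 8.16% and 6.31% of all genes.

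The calls rested on all 3 WT libraries. Without WT 1, WT 2 or WT 3 no collagen was called, in fits that called 0, 1 and 5 genes in all. With the animal number series as a term 0 collagens and 14 genes were called. Without GLUT1EC-/- 1 only Col12a1 was called, and without GLUT1EC-/- 3 the same 5 were. Without GLUT1EC-/- 2 the number of collagens called was 10, of 862 genes called in all: Col3a1, Col5a1, Col5a3, Col8a1 and Col8a2 were added to the 5. Across the 16 alternatives each of the 5 genes kept its sign, with log2 fold changes of 0.97 to 1.42 for Col4a1, 0.999 to 1.54 for Col4a2, 1.01 to 1.24 for Col18a1, 2.87 to 3.44 for Col12a1 and -3.55 to -2.90 for Col14a1.

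**Figure D1:**
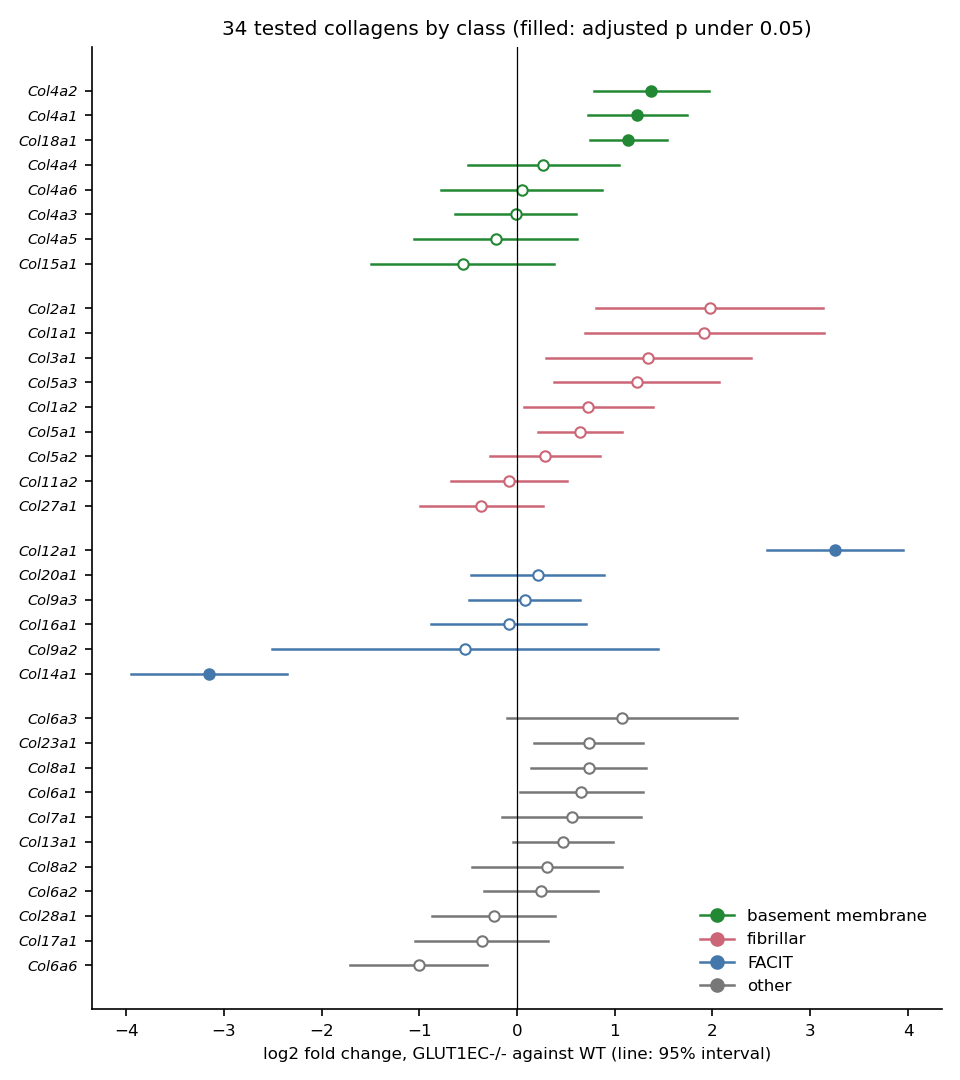
Log2 fold change of GLUT1EC-/- against WT for the 34 tested collagens, grouped by class, with 95% intervals as lines; filled points have an edgeR adjusted p under 0.05. Of the 5 filled points 3 are basement membrane genes on the right, and the remaining 2 are the FACIT genes Col12a1 at 3.25 and Col14a1 at -3.15.

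Col4a1 and Col4a2, the type IV chains of the endothelial basement membrane, were higher in all 3 GLUT1EC-/- libraries. Col4a1, whose chain forms most of the vascular type IV network, was at 1259, 1276 and 1136 CPM in WT 1 to 3 and at 2065, 3793 and 2762 CPM in GLUT1EC-/- 1 to 3. The lowest GLUT1EC-/- library was above the highest WT library. On the log2 scale the difference was 1.23 with an SE of 0.22 and an edgeR adjusted p of 0.0433, that is 2.35-fold higher (95% interval 1.65 to 3.34). Col4a2, the partner chain, was at 1202, 1197 and 1089.8 CPM in WT, against 2302, 4375 and 2366 CPM in GLUT1EC-/-. Again the groups were apart, with GLUT1EC-/- 2 far above the rest. On the log2 scale the difference was 1.37 with an SE of 0.26 and an edgeR adjusted p of 0.0488, that is 2.59-fold higher (95% interval 1.73 to 3.89). The adjusted p of Col4a2 was 0.0533 with limma-voom and 0.0505 with the filter of at least 1 CPM in 3 libraries. Without GLUT1EC-/- 2 the log2 fold changes were 0.97 for Col4a1 and 0.999 for Col4a2.

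The summed level of Col4a1 and Col4a2 was 2226 to 2473 CPM in WT, against 4367 to 8168 CPM in GLUT1EC-/-, or 78.7% to 79.9% and 82.1% to 91.3% of all collagen CPM. These genes made up most of the family total, which was 2785 to 3143 CPM in WT, against 5226 to 8943 CPM in GLUT1EC-/-. Over the other 37 members the sum was 559 to 670 CPM in WT, against 775 to 1116 CPM in GLUT1EC-/-. The count ratio of Col4a1 to Col4a2 was 1.05, 1.07 and 1.04 in WT and 0.897, 0.867 and 1.17 in GLUT1EC-/-. The ratio was nearly the same in the WT libraries and lay on both sides of it in GLUT1EC-/-, so the groups overlapped. The exact two-sided permutation p was 0.4 (0.4 adjusted over 7 chain pairs). It cannot decide the question, because 0.1 is the smallest that 3 against 3 libraries can give. The 7 pairs were also chosen after their values were seen.

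The 4 remaining type IV chains, which belong to the specialised networks of sites such as the kidney filter and the lens capsule, gave no call. Col4a3 and Col4a4 lie head to head on chromosome 1 with start sites 72 bases apart, and Col4a5 and Col4a6 on chromosome X with 1309 bases between them. Col4a5 was at 16.2, 21.3 and 15.2 CPM in WT, against 16.7, 6.99 and 21.6 CPM in GLUT1EC-/-. All 4 had their lowest value of the 6 libraries in GLUT1EC-/- 2, the library in which Col4a1 and Col4a2 were highest. Their log2 fold changes lay between -0.22 and 0.27, with 95% intervals that reach a fold of 2.06 for Col4a4 and 0.482 for Col4a5. Choroid plexus markers were also lowest in GLUT1EC-/- 2, at 0.619 times the WT mean against 1.17 times in GLUT1EC-/- 1, and their part in these values was not tested. In GLUT1EC-/- 2, 14 of the 34 tested collagens were below all 3 WT libraries, as were 40.6% of all genes tested.

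Col18a1, which encodes the basement membrane collagen from which endostatin is cut, was at 180.1, 196 and 141 CPM in WT, against 327, 426 and 387 CPM in GLUT1EC-/-. The groups were clearly apart and the GLUT1EC-/- libraries spread less than for the type IV chains. On the log2 scale the difference was 1.14 with an SE of 0.17 and an edgeR adjusted p of 0.0259, that is 2.20-fold higher (95% interval 1.68 to 2.90). Col18a1 lies on chromosome 10 (GRCm38, 77052178 to 77166548, minus strand). Col15a1, the other multiplexin, had 20.8, 21.9 and 23.0 CPM in WT, against 13.4, 6.33 and 25.0 CPM in GLUT1EC-/-. It did not move with Col18a1: GLUT1EC-/- 1 and 2 were below WT and GLUT1EC-/- 3 above it (log2 fold change -0.56, SE 0.41, edgeR adjusted p = 0.574). Compared within the number series on the log2(CPM + 0.5) scale, Col4a1 differed by 0.70 among animals of the 200s and by 1.51 among those of the 500s, Col4a2 by 0.94 and 1.56, and Col18a1 by 0.80 and 1.52, each as GLUT1EC-/- minus WT. With the number series as a term the adjusted p was 0.187, 0.203 and 0.118 for the same genes.

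**Figure D2:**
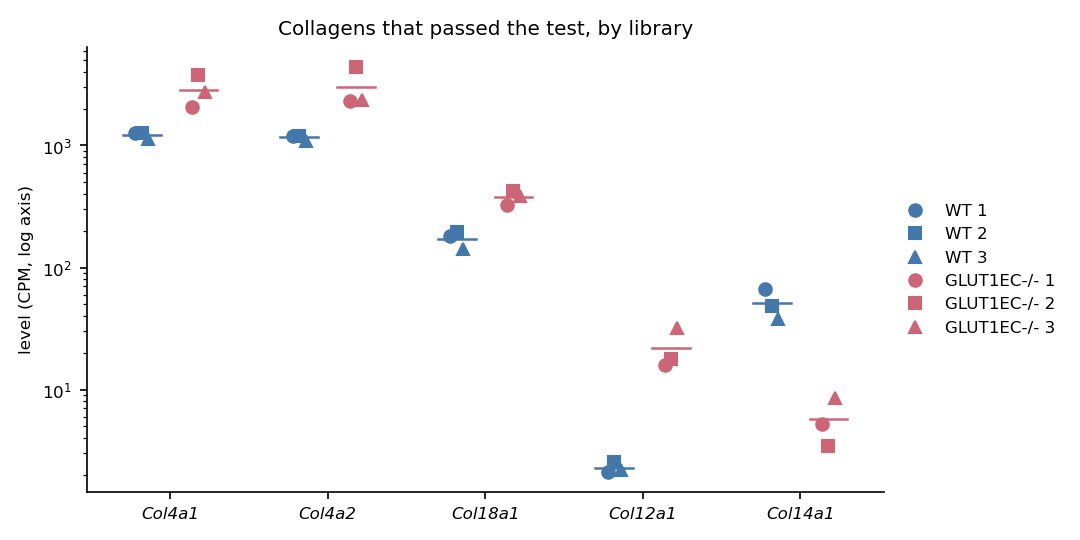
Levels in CPM on a log axis of the 5 collagens that passed the test, with 1 point per library and a line at the group mean. For Col4a1, Col4a2, Col18a1 and Col12a1 all GLUT1EC-/- points lie above all WT points, and for Col14a1 below them.

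Among the FACITs a pair of closely related genes went opposite ways. Col12a1, whose product coats collagen I fibres in tissues under tension, was at 2.10, 2.57 and 2.19 CPM in WT, against 15.9, 17.7 and 32.0 CPM in GLUT1EC-/-. All 3 GLUT1EC-/- libraries were several times above WT, with GLUT1EC-/- 3 the highest. On the log2 scale the difference was 3.25 with an SE of 0.30 and an edgeR adjusted p of 0.00997, that is 9.54-fold higher (95% interval 5.87 to 15.5). Col14a1, which encodes undulin, also a fibril-binding collagen, was at 66.4, 48.1 and 37.9 CPM in WT, against 5.195, 3.47 and 8.47 CPM in GLUT1EC-/-. The highest GLUT1EC-/- library was far below the lowest WT library. The difference was -3.15 on the log2 scale with an SE of 0.35 and an edgeR adjusted p of 0.0148, that is 8.87-fold lower (95% interval 5.10 to 15.5). Within the 200s and the 500s the differences on the log2(CPM + 0.5) scale were 2.53 and 3.18 for Col12a1 and -3.32 and -2.69 for Col14a1. With the number series as a term the adjusted p was 0.0544 for Col12a1 and 0.0761 for Col14a1.

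The other FACITs had no call. Col9a3, a chain of the cartilage collagen IX, was the most abundant of them at 56.1, 52.6 and 67.2 CPM in WT, against 79.6, 39.2 and 67.1 CPM in GLUT1EC-/-. These values overlap, and among the GLUT1EC-/- libraries the order 1, 3, 2 was that of the choroid plexus markers, whose part was not tested. The log2 fold change of Col9a3 was 0.08 (SE 0.25). Its exons share 234 bases with those of Tcfl5 on the other strand, so without a stated strand setting its count is uncertain. Other members have such overlaps too, among them Col4a3 with 563 bases, Col5a1 with 212 and Col4a2 with 65. Col16a1, Col20a1 and Col9a2 had log2 fold changes of -0.09, 0.21 and -0.53, the last at a mean of 0.288 CPM in WT. Col9a2 had a 95% interval from 0.176-fold to 2.72-fold, so changes within that range are compatible with its low counts.

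Fibrillar collagens were mostly higher in the GLUT1EC-/- libraries by value, but none of the 9 tested passed. Their median log2 fold change was 0.73, with 7 positive and 2 negative. At an unadjusted p under 0.05, 6 of them were higher, against 8.16% of all genes tested. GLUT1EC-/- 3 was the highest library for 6 of the 9, against 17.6% of all genes tested. Col1a1, the main chain of type I collagen, was at 8.51, 8.15 and 8.23 CPM in WT, against 19.3, 12.4 and 62.2 CPM in GLUT1EC-/-. The WT libraries were nearly equal, and GLUT1EC-/- 3 held several times the level of GLUT1EC-/- 1 and 2. The difference was 1.92 on the log2 scale (SE 0.53, edgeR adjusted p = 0.149), and 0.94 without GLUT1EC-/- 3. Col1a2, the partner chain of type I, was at 35.0, 39.0 and 33.6 CPM in WT, against 48.7, 39.1 and 90.5 CPM in GLUT1EC-/-. GLUT1EC-/- 2 was barely above the highest WT library (log2 fold change 0.73, SE 0.29, edgeR adjusted p = 0.291).

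The ratio of Col1a1 to Col1a2 counts was 0.243, 0.209 and 0.245 in WT and 0.397, 0.317 and 0.688 in GLUT1EC-/-. It was higher in each GLUT1EC-/- library than in any WT library, and the exact two-sided permutation p was 0.1, the smallest possible here (0.233 adjusted over 7 chain pairs). The ratio of Col6a1 to Col6a2 and that of Col8a1 to Col8a2 also had groups that did not overlap (p = 0.1 each by the same exact permutation test, 0.233 adjusted), at 0.529 to 0.698 against 0.842 to 0.879 and at 1.005 to 1.46 against 1.62 to 2.22. All 7 pairs were chosen after their values were seen.

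Type V collagen regulates the width of type I fibres. Col5a1 was at 6.65, 6.60 and 6.26 CPM in WT, against 9.35, 9.08 and 11.99 CPM in GLUT1EC-/-, with groups apart (log2 fold change 0.64, SE 0.19, edgeR adjusted p = 0.166). Col5a3 was at 1.95, 3.42 and 2.29 CPM in WT, against 5.72, 3.59 and 8.58 CPM in GLUT1EC-/-, again apart though narrowly in GLUT1EC-/- 2 (log2 fold change 1.22, SE 0.37, edgeR adjusted p = 0.176). Col5a2, the most abundant fibrillar gene here, was at 53.6, 60.0 and 44.7 CPM in WT, against 62.0, 43.6 and 87.3 CPM in GLUT1EC-/-. Its groups overlapped (log2 fold change 0.29, SE 0.24). Col3a1, which lies beside Col5a2 on chromosome 1, was at 12.2, 21.0 and 19.5 CPM in WT, against 39.9, 18.2 and 75.3 CPM in GLUT1EC-/-. There GLUT1EC-/- 2 lay among the WT values (log2 fold change 1.34, SE 0.46, edgeR adjusted p = 0.23). Col2a1, the cartilage collagen, was below 3 CPM in every library with groups apart (log2 fold change 1.97, SE 0.51, edgeR adjusted p = 0.124). Col11a2 and Col27a1 had log2 fold changes of -0.09 and -0.37.

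The libraries that held the most fibrillar collagen were not those that held the most type IV collagen. The summed fibrillar level was 132 to 159 CPM in WT, against 203, 142 and 357 CPM in GLUT1EC-/- 1 to 3, the order being GLUT1EC-/- 3, 1, 2. For Col4a1 and Col4a2 together the order was GLUT1EC-/- 2, 3, 1, at 3.42, 2.15 and 1.83 times the WT mean. Of the 34 tested collagens 19 had their highest value in GLUT1EC-/- 3, as had 17.6% of all genes tested. Another 6 had it in GLUT1EC-/- 2, the highest library for 4934 of all 14838 genes tested.

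Across the GLUT1EC-/- libraries the sum of fibroblast markers ran in the same order as that of the fibrillar genes. The 12 listed markers, which include no collagen, summed to 76.3, 90.4 and 84.2 CPM in WT and to 142, 123 and 206 CPM in GLUT1EC-/- 1 to 3, or 1.70, 1.47 and 2.46 times the WT mean. Of the 10 tested 1 rose, none fell and 8 had positive values, with a median log2 fold change of 0.83, and none was at 0 in all libraries. In GLUT1EC-/- 2, 4 of the 10 were below all 3 WT libraries, as were 40.6% of all genes tested. The marker that rose was Dcn, the gene of the fibril-binding proteoglycan decorin, at 18.3, 19.7 and 20.6 CPM in WT, against 68.2, 68.0 and 103 CPM in GLUT1EC-/- (log2 fold change 2.03, edgeR adjusted p = 0.00997). Dcn made up most of the rise in the sum, but was nearly equal in GLUT1EC-/- 1 and 2. Its mean went from 19.5 to 79.8 CPM, and that of the whole list from 83.7 to 157 CPM. Ogn, another small proteoglycan of the list, had 18.7 to 24.7 CPM in WT, against 9.05 to 14.2 CPM in GLUT1EC-/- (edgeR adjusted p = 0.15). Microglia markers had that order too, at 1.81, 1.41 and 2.92 times the WT mean, and endothelial markers were at 1.09, 1.23 and 1.09 times. Of the 12 endothelial markers 8 had negative values (median log2 fold change -0.04), while Vwf was at 2590 ± 602 CPM in WT, against 5584 ± 33.7 CPM in GLUT1EC-/- (SD, n = 3). The part of any of these markers in the collagen values was not tested. Pericyte markers summed to 1156 to 1362 CPM in WT, against 1298 to 1648 CPM in GLUT1EC-/-, highest in GLUT1EC-/- 2, and smooth muscle markers to 1961 to 2561 and 1879 to 2481 CPM. Of the 10 pericyte markers 6 had positive and 4 negative values (median log2 fold change 0.15). Singly, 4 of them were highest in GLUT1EC-/- 2, as were 4934 of all 14838 genes tested, and 3 were below all WT libraries there. Relative to the WT mean the sums in GLUT1EC-/- 1 to 3 were 1.06, 1.34 and 1.10 times for pericytes and 0.824, 0.943 and 1.09 times for smooth muscle. The part of mural cells in the Col4a1 and Col4a2 values was not tested.

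**Figure D3:**
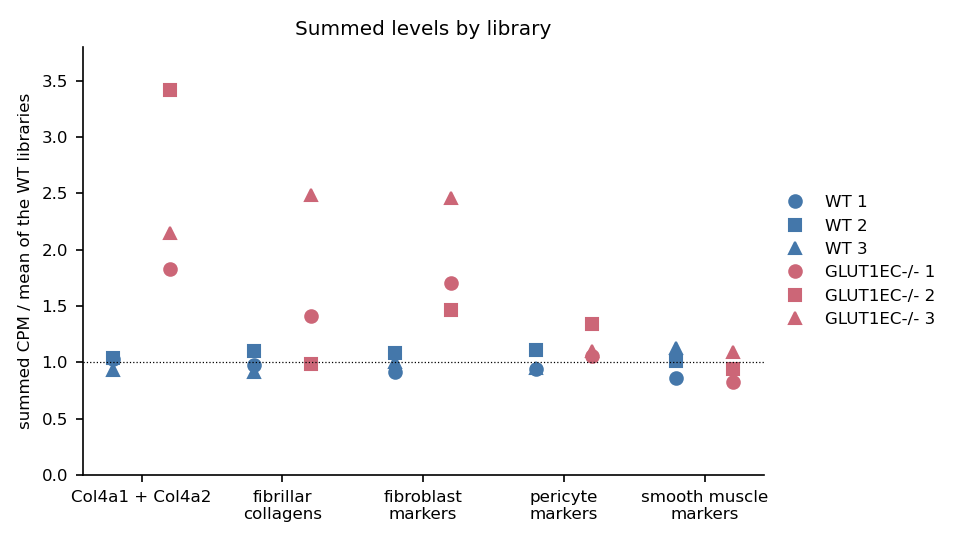
Summed CPM of Col4a1 with Col4a2, of the 10 fibrillar collagens and of the marker lists for fibroblasts, pericytes and smooth muscle, each divided by the mean of the 3 WT libraries, 1 point per library. GLUT1EC-/- 2 is highest for the type IV pair at 3.42, and GLUT1EC-/- 3 for the fibrillar collagens at 2.48 and the fibroblast markers at 2.46. Most of the rise in the fibroblast sum is that of Dcn.

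The other collagens include the beaded filaments of type VI, the short-chain networks of types VIII and X and the membrane-spanning collagens. None of the 11 tested passed, 8 had positive values and the median log2 fold change was 0.47. Col6a6, a long chain of type VI, had the most negative difference among them, at 30.5, 29.0 and 18.8 CPM in WT, against 18.0, 8.10 and 12.8 CPM in GLUT1EC-/-. Its groups did not overlap by a narrow margin (log2 fold change -1.01, SE 0.30, edgeR adjusted p = 0.177). The chains Col6a1, Col6a2 and Col6a3 had log2 fold changes of 0.66, 0.25 and 1.07, each with GLUT1EC-/- 3 as the highest library. Col8a1, whose product forms the sheets under vascular and corneal endothelium, was at 29.2, 32.5 and 24.5 CPM in WT, against 54.0, 29.4 and 59.6 CPM in GLUT1EC-/-. Here GLUT1EC-/- 2 lay within WT and the remaining GLUT1EC-/- libraries were well above it (log2 fold change 0.73, SE 0.26, edgeR adjusted p = 0.24), with an adjusted p of 0.00457 without GLUT1EC-/- 2. Col8a2 was at 20.0, 22.8 and 24.3 CPM in WT, against 33.0, 13.2 and 36.9 CPM in GLUT1EC-/-, with GLUT1EC-/- 2 below all WT libraries and the remaining GLUT1EC-/- libraries above them (log2 fold change 0.31, SE 0.33).

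Among the membrane-spanning collagens Col23a1 was at 3.22, 4.44 and 2.93 CPM in WT, against 6.34, 6.12 and 5.14 CPM in GLUT1EC-/-. The groups were apart (log2 fold change 0.73, SE 0.24, edgeR adjusted p = 0.214). Col13a1 and Col17a1 had log2 fold changes of 0.47 and -0.36. Col7a1, the anchoring fibril collagen of skin, had one of 0.56 and Col28a1 one of -0.24, all with groups that overlapped. The 5 members that were not tested, Col6a5, Col10a1, Col11a1, Col22a1 and Col25a1, had 13 to 55 counts over the 6 libraries. Col11a1 was the most counted of them, with 2, 7 and 0 counts in WT and 13, 8 and 25 in GLUT1EC-/-.

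**Figure D4:**
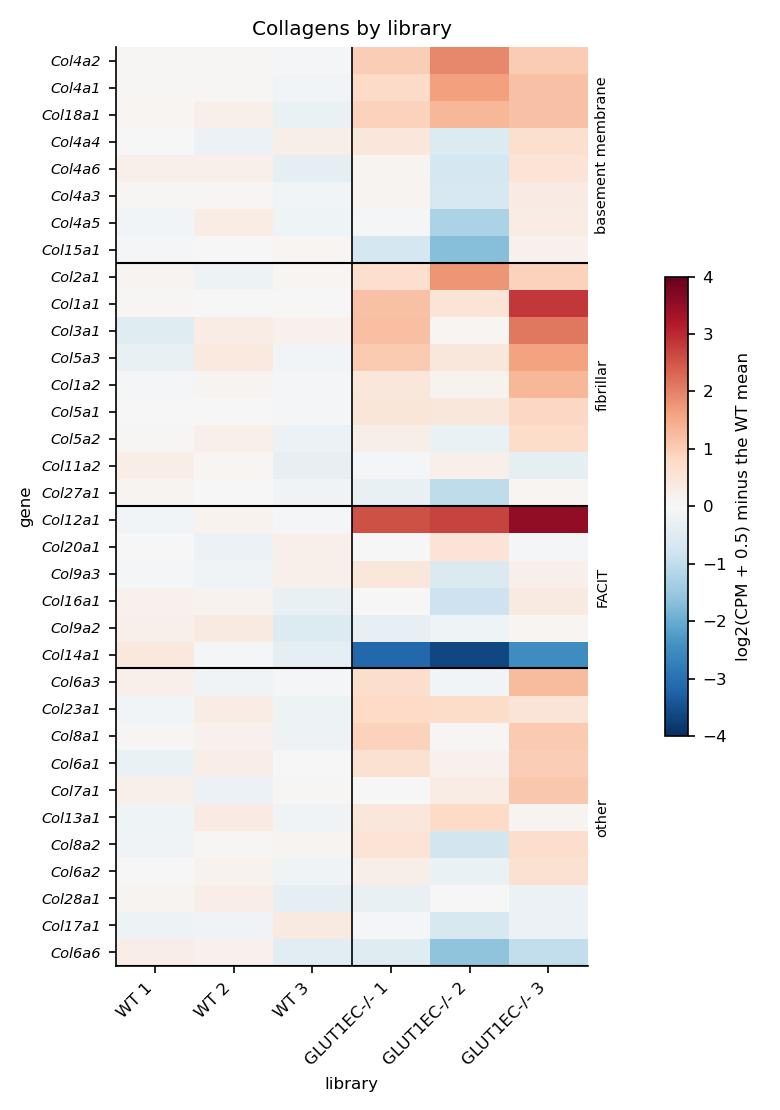
Level of each tested collagen in each library as log2(CPM + 0.5) minus the mean of the WT libraries, in rows grouped by class. GLUT1EC-/- 2 is the reddest column for Col4a1, Col4a2 and Col18a1, and GLUT1EC-/- 3 for Col1a1 and Col3a1.

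Divided by the length of their annotated exons, the collagens of these cells spanned a wide range. In WT, Col4a2 was at 176 ± 9.58 CPM per kb and Col4a1 at 164 ± 10.2 CPM per kb (SD, n = 3). The ranges of these neighbours overlap between libraries, but within each of the 3 WT libraries Col4a2 was the higher, at 182, 181 and 165 CPM per kb, against 169, 171 and 152 CPM per kb for Col4a1. Col18a1 followed at 24.6 ± 4.05 and Col9a3 at 15.2 ± 1.98 CPM per kb, both apart from the genes next to them in this order. Col14a1 was the fifth by mean at 7.25 ± 2.06 CPM per kb, ahead of Col5a2 at 5.50 ± 0.80 and Col8a2 at 4.98 ± 0.50 CPM per kb. In WT 3, however, Col14a1 was at 5.41 CPM per kb against 5.42 for Col8a2. Col5a2 was above Col8a2 in 2 of the 3 WT libraries, so their order is within the spread. In GLUT1EC-/- the leading 4 genes kept their places by group mean, at 455 ± 178, 385 ± 116, 54.1 ± 7.12 and 16.1 ± 5.37 CPM per kb. The spreads of Col4a2 and Col4a1 overlapped there, and their order did not hold in every GLUT1EC-/- library. Col14a1 was then at 0.814 ± 0.363 CPM per kb, at place 24 of 39, and Col12a1 at 1.44 ± 0.579 CPM per kb against 0.150 ± 0.016 in WT.

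Genes that modify, fold, cut or cross-link collagen were read in 4 lists. Of 20 genes for modification and folding in the endoplasmic reticulum 2 rose, none fell and 16 had positive values (median log2 fold change 0.23). Over all 14838 genes tested 0.863% rose and 7647 had positive values. Fkbp10, a prolyl isomerase that assists procollagen folding, was at 15.7, 20.7 and 27.6 CPM in WT, against 57.2, 91.0 and 50.03 CPM in GLUT1EC-/- (log2 fold change 1.63, SE 0.28, edgeR adjusted p = 0.0394). Fkbp14, an isomerase of the same family, was at 8.26, 9.11 and 8.89 CPM in WT, against 15.9, 21.5 and 16.0 CPM in GLUT1EC-/- (log2 fold change 1.02, SE 0.18, edgeR adjusted p = 0.041). Both had groups that did not overlap, and GLUT1EC-/- 2 was the highest library for each, as for Col4a1 and Col4a2. That library was also the highest for 8 of the 20 listed genes and for 4934 of all 14838 genes tested. The collagen chaperone Serpinh1 (HSP47) was at 272 ± 30.0 CPM in WT, against 336 ± 17.6 CPM in GLUT1EC-/-, and P4hb, the shared subunit of prolyl 4-hydroxylase, at 567 ± 17.6 and 714 ± 62.0 CPM (SD, n = 3 each), without a call.

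Of 11 tested genes for procollagen cleavage and cross-linking 2 rose and none fell (median log2 fold change 0.65), where 0.863% of all genes tested rose. Adamts2, the protease that removes the amino-terminal propeptide of fibrillar procollagens, was at 0.619, 0.672 and 0.641 CPM in WT, against 4.05, 7.38 and 4.58 CPM in GLUT1EC-/-. Every GLUT1EC-/- library was several times above the nearly equal WT libraries (log2 fold change 3.04, SE 0.33, edgeR adjusted p = 0.0148). Loxl4, a lysyl oxidase that cross-links collagen, was at 5.88, 6.75 and 4.63 CPM in WT, against 17.7, 11.7 and 13.3 CPM in GLUT1EC-/- (log2 fold change 1.31, SE 0.23, edgeR adjusted p = 0.0422). Loxl4 missed the threshold with limma-voom, upper-quartile scaling and library size alone, and Fkbp14 with limma-voom. Without WT 1, WT 2 or WT 3, or with the number series as a term, none of the called genes for folding or cross-linking passed. Without GLUT1EC-/- 1 only Adamts2 did.

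Collagen receptors (0 of 9) and collagen-degrading enzymes (0 of 5) had no call. Itgb1, the integrin beta chain of the collagen receptors, was at 647 ± 46.4 CPM in WT, against 805 ± 26.9 CPM in GLUT1EC-/- (edgeR adjusted p = 0.307), and Itga1, its partner for collagen IV, at 204 ± 36.3 and 240.3 ± 28.6 CPM (edgeR adjusted p = 0.567; SD, n = 3). The membrane-bound collagenase Mmp14 was at 10.6, 16.2 and 16.9 CPM in WT, against 28.9, 57.8 and 26.1 CPM in GLUT1EC-/- (log2 fold change 1.37, SE 0.33, edgeR adjusted p = 0.099). Mmp2, a gelatinase that cuts type IV collagen, was at 4.24, 4.47 and 4.83 CPM in WT, against 7.65, 13.4 and 11.8 CPM in GLUT1EC-/- (log2 fold change 1.28, SE 0.24, edgeR adjusted p = 0.0507). Groups did not overlap for either gene, as for 11.7% of all genes tested in that direction. Of the 5 degrading enzymes tested 3 had positive and 2 negative values, with a median log2 fold change of 0.18.

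**Figure D5:**
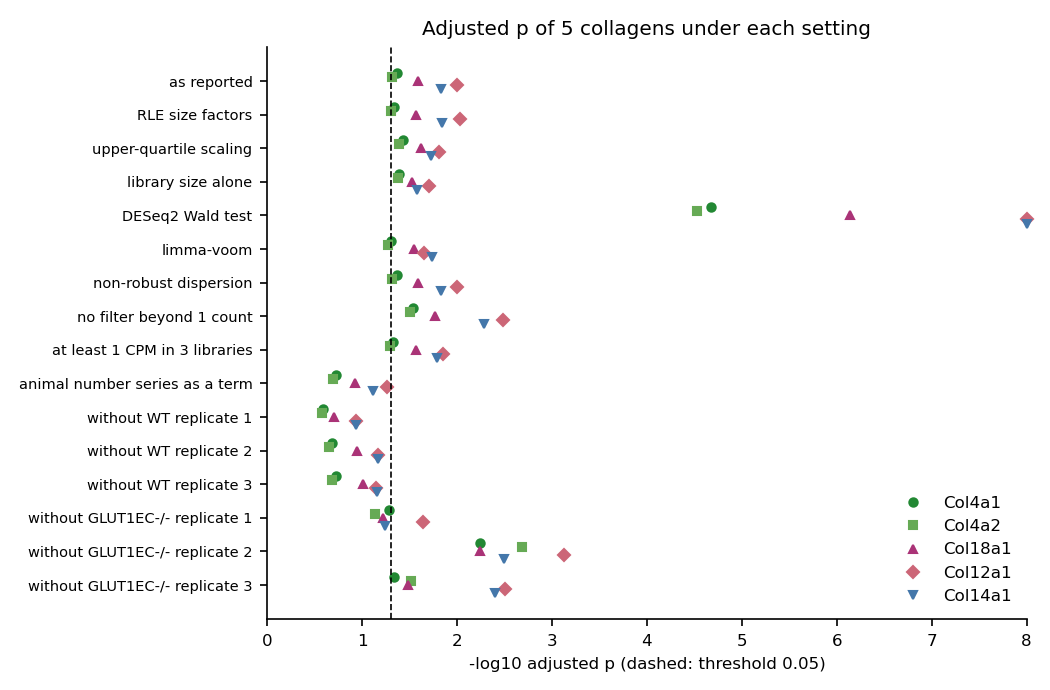
Adjusted p on a -log10 scale of Col4a1, Col4a2, Col18a1, Col12a1 and Col14a1 as reported and under 15 alternatives, with a dashed line at 0.05; 2 points of the DESeq2 fit lie beyond the axis and are drawn at its end. Points right of the line are calls, and none lies there for the number series term or when any WT library is left out.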

How the data were processed

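Read alignment by the authors used STAR and GRCm38, and featureCounts gave the counts, per the submitters' processing notes; versions, annotation and strand setting are not given in the sources used here. Per the labels' protocols, libraries were stranded mRNA read as single ends. What the authors deposited are unnormalised counts, 1 value per gene symbol and library. Groups follow the genotype label, and p-values reflect only the variation among 3 animals of each genotype. Tests used edgeR 4.0.16 (R 4.3.3): the quasi-likelihood F test on genotype alone with robust dispersions, after TMM scaling and filterByExpr (at least 10 counts, 15 in total), with Benjamini-Hochberg adjustment over 14838 genes at 0.05. CPM were computed with the TMM factors. Each SE is the log2 fold change over the root of its F value.

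Members, classes, lists and alternatives were chosen with earlier results of these data known. Values in every library are given for collagens that passed, for those whose groups do not overlap at a mean of at least 1 CPM, and for the 2 most abundant of each class. Pathway lists are represented by up to 4 members that passed or by the 2 most abundant. Outside that rule, Col3a1, Col4a5, Col15a1, Ogn, Serpinh1, P4hb and the 7 chain ratios were chosen after their values were seen. Of 45 listed collagen symbols 2 had no match. The result of a further marker list is not reported here. Coordinates and exon lengths come from GENCODE on GRCm38, which may not be the authors' annotation. No tested collagen had the same 6 counts as another gene, and libraries of a group differed beyond counting noise (chi-square 12.8 to 192 per degree of freedom). Alternatives, among them limma-voom (limma 3.58.1) and DESeq2 1.42.0, are given in the closing section.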

Additional observations from a re-analysis of the deposited data

How the results depend on the processing

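No paired analysis was possible because the labels give no number that a WT and a GLUT1EC-/- animal share: replicates were numbered by order within a genotype, which pairs nothing. The 200s and 500s number series, which both genotypes hold, entered a fit as a term. The limits are those of 3 animals per group with a common biological coefficient of variation of 23.2%: calls moved with single libraries. The cause of the changes was not tested, except that leaving out a library leaves fewer samples.

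Over all genes 194 were called, 128 higher and 66 lower. DESeq2 called 879 (502 and 377), an adjusted p of 0.1 gave 429 (262 and 167), and the number series as a term gave 14 (9 and 5). Collagen calls went from 5 (4 higher, 1 lower) to 11 with DESeq2 (9 and 2, with 5 fibrillar and 1 of the other class) and to 0 with the number series, in both directions, in the basement membrane and FACIT classes and in the folding and cross-linking lists. RLE, upper-quartile scaling, library size alone, non-robust dispersion and no low-count filter kept the 5, and limma-voom and the 1 CPM filter called 4 (all but Col4a2). The folding list had 1 call with limma-voom. The cross-linking list had 1 with upper-quartile scaling, library size alone and limma-voom, and 4 with DESeq2. The degrading enzymes had 2 with DESeq2 and at 0.1, and 1 without the filter. Slc2a1 had a log2 fold change of -0.00093 with upper-quartile scaling, -0.0200 with library size alone and -0.0112 with the number series.

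Leaving out 1 library in turn gave 0 to 862 genes (0 to 530 higher, 0 to 332 lower) and 0 to 10 collagens (0 to 9 higher, 0 to 1 lower): 0 to 3 basement membrane, 0 to 2 FACIT, 0 to 3 fibrillar and 0 to 2 other. The lists had 0 to 3 (folding), 0 to 5 (cross-linking), 0 to 1 (receptors) and 0 to 2 (degrading enzymes). Class medians ran from -0.11 to 0.45, -0.19 to 0.08, 0.50 to 0.95 and 0.16 to 0.64 in the same order of classes. Slc2a1 ran from -0.15 to 0.14, and Col9a3 from -0.14 to 0.32, negative without GLUT1EC-/- 1.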
